A study of Mus musculus with 4 samples.

Results

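The clustered protocadherins are 3 tandem arrays of cell adhesion genes, alpha, beta and gamma, that lie one after another on mouse chromosome 18. They were taken here as every gene whose symbol is Pcdha, Pcdhac, Pcdhb, Pcdhga, Pcdhgb or Pcdhgc followed by a number, which selected 57 of the 24026 genes with deposited values. Of these, 13 are alpha genes, 22 are beta genes and 22 are gamma genes. Their expression was measured in F123-ESCs, a male mouse embryonic stem cell line from a cross of S129 and CAST mice, whose autosomes came from an S129 mother and a CAST father. The series holds 1 group, 4 libraries of untreated cells, called replicates 1 to 4. The line stands for 1 hybrid genotype, so the allele and the parent of origin cannot be told apart. Nothing in the labels says that the libraries came from separate cultures, and p-values therefore measure only the spread between these libraries, which may be technical.

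Clustered protocadherins are cadherin-like membrane proteins best known from neurons, where different combinations of them are displayed on different cells and bind the same combination on a neighbouring cell. In the alpha and gamma clusters, each member is made from its own large variable exon, which encodes the outside of the cell and the membrane span, joined to constant exons that all members of the cluster share. Beta genes are encoded by a single large exon and have no constant exons. Most variable exons have their own promoter, chosen stochastically in neurons with the help of CTCF and cohesin and kept silent by DNA methylation and heterochromatin, while the C-type genes (Pcdhac1, Pcdhac2, Pcdhgc3, Pcdhgc4 and Pcdhgc5) are regulated apart from the rest.

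Each gene has an RPKM (reads per kilobase of gene, scaled to the total of reads) on each allele in each library, made from stranded, paired sequencing of polyA-enriched RNA. Reads that cover no SNP between the strains enter no value, so a level also depends on how many SNPs a gene has, which was not measured here. The total of reads assigned to an allele was between 16716721 and 28772351 over the 8 allele columns. The whole number of reads behind each RPKM was recovered from the steps between the values, for all 52 members above 0 and for 20134 of the 20243 genes above 0. In a gamma gene, a single read stood for between 0.00684 and 0.0184 RPKM. All intervals given cover counting error only. All 10 pluripotency markers examined had at least 29.5 RPKM, with Zfp42 at 512 ± 47.2 (SD, n = 4), which fits the label of the cells. Of 12 neural genes, 4 reached 1 RPKM (Nes, Fabp7, Tubb3 and Map2), while Dcx, a marker of young neurons, was at 0.00464 ± 0.00536 (SD, n = 4). Map2 was at 11.1 RPKM with 1114 reads, and Sox1, another of the 12, at 0.835 RPKM with 770 reads. RPKM depends on the gene length used, which was not examined for the marker genes. The cells had been grown on mouse fibroblast feeders and passaged without them before harvest. Of 12 fibroblast genes, 10 reached 1 RPKM and none was at 0. Their summed level was between 497 and 591 RPKM in the 4 libraries. Most of it came from Acta2 (339.5 ± 23.0) and Col1a2 (166 ± 17.5 RPKM, SD, n = 4). Only Lum, a fibroblast matrix protein, at 0.0462 ± 0.0231 and Dcn, another, at 0.659 ± 0.0953 (SD, n = 4) were under 1 RPKM. The part of other cell types in the protocadherin values was not tested, and in bulk RNA fewer expressing cells and less RNA per cell cannot be told apart.

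The clustered protocadherins were low in F123-ESCs, and the gamma cluster held most of what was measured. Levels are the mean of both alleles. Over the 57 members the median was 0.0600 RPKM, against 0.975 RPKM over all genes and 2.09 RPKM over the 508 other genes of chromosome 18. Only 2 members (3.51%) had a mean of at least 1 RPKM, against 49.7% of all genes, and 23 members (40.4%) had at least 0.1 RPKM, against 67.8% of all genes. By contrast, 5 members (8.77%) were at 0 in every column, against 15.7% of all genes. The members at 0 were Pcdha4, Pcdha7, Pcdha11, Pcdhac1 and Pcdhb10. The members had 7701 reads in all, of which 89.1% were on gamma, 10.1% on beta and 0.831% on alpha genes.

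**Figure D1:**
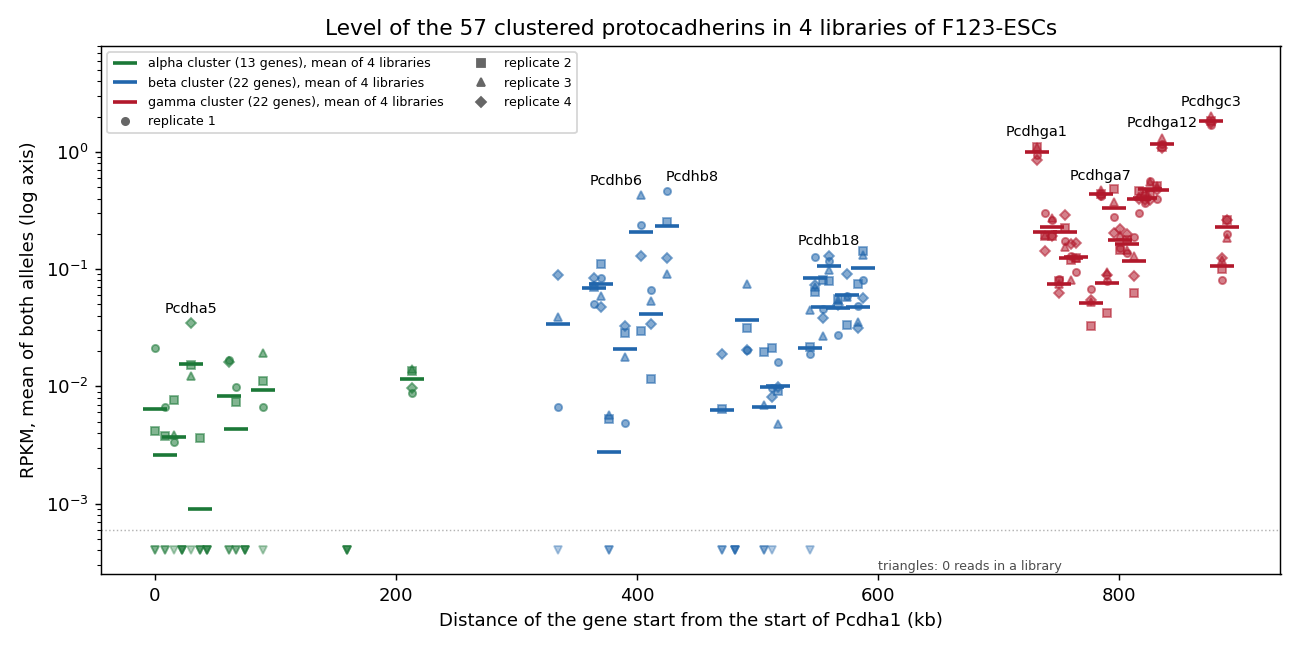
RPKM of the 57 members (mean of both alleles, log axis) against the distance of the gene start from the start of Pcdha1 in kb. Symbols are the 4 libraries, bars their mean and triangles below the dotted line libraries with 0 reads; levels step up from the alpha to the gamma cluster, with Pcdhgc3, Pcdhga12 and Pcdhga1 highest.

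The gamma cluster (mm10, chr18:37661793-37841873, plus strand) was detected throughout. All 22 genes had reads in every library, 21 of them in all 8 columns, and 18 had at least 100 reads in all. Pcdhgc3 (ENSMUSG00000102918, chr18:37806364-37841873), a C-type gene, was highest of all members, with 1.69, 1.84, 2.00 and 1.75 RPKM in replicates 1 to 4 (mean 1.82 ± 0.136, SD, n = 4). Its 1163 reads give an exact Poisson interval (95%) of 1.72 to 1.93 RPKM. Among all genes of the series its mean ranked 10607. Pcdhga12 (ENSMUSG00000102428, chr18:37765580-37841873), the last of the A-type genes, had 1.17, 1.10, 1.31 and 1.09 RPKM (mean 1.17 ± 0.105, SD, n = 4). Pcdhga1 (ENSMUSG00000103144, chr18:37661793-37841873), the first gene of the cluster, had 0.939, 1.10, 1.10 and 0.855 RPKM (mean 0.997 ± 0.120, SD, n = 4).

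Pcdhgc3 was above Pcdhga12 in 4 of 4 libraries, by 0.64 ± 0.092 on the log2 scale (SD, n = 4). Pcdhga12 was above Pcdhga1 in 4 of 4 libraries by 0.23 ± 0.16 (SD, n = 4), a difference larger than its spread, although in replicate 2 the deposited values were nearly equal. These 3 genes, 1 at each end of the A-type series and 1 C-type gene, held 42.4% of the gamma reads. The next level was reached by Pcdhga11 (0.485 ± 0.0871), Pcdhgb8 (0.474 ± 0.0544), Pcdhga7 (0.441 ± 0.0197), Pcdhgb7 (0.406 ± 0.0371) and Pcdhga10 (0.395 ± 0.0667 RPKM, SD, n = 4). By deposited RPKM, Pcdhga1 was above Pcdhga11 in 4 of 4 libraries. The order among these 5 changed between libraries for most neighbours. Pcdhga11 was above Pcdhgb8 in 2 of 4, Pcdhgb8 above Pcdhga7 in 3 of 4 and Pcdhgb7 above Pcdhga10 in 2 of 4. Pcdhgb8 is annotated as a polymorphic pseudogene, and its 411 reads placed it among the better measured members. Pcdhga8 was at 0.334 ± 0.121 RPKM (SD, n = 4).

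The remaining 13 gamma genes were between 0.0518 RPKM (Pcdhga6) and 0.229 RPKM (Pcdhga3). Among the C-type genes, which share the gamma constant exons but not the variable exon family, Pcdhgc5 had 0.227 ± 0.0415 and Pcdhgc4 had 0.106 ± 0.0197 RPKM (SD, n = 4), so the 3 C-type gamma genes spanned the range from the top of the cluster to near its bottom. By family, the median was 0.282 RPKM over 12 Pcdhga genes and 0.123 RPKM over 7 Pcdhgb genes. Spearman's rho between the level and the order on the chromosome was 0.293 across the 22 genes. Between pairs of libraries the 22 levels correlated with a rho of 0.876 to 0.972, and between the alleles with 0.893. These correlations are descriptions across genes that share libraries, gene lengths and SNPs.

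How the gene length entered the RPKM matters for the order of the members. The values of all 52 members with reads were whole reads at the length of the transcript listed first in the GENCODE M21 annotation. For 20 gamma genes this is a spliced transcript of 4615 to 5080 bp that includes the shared constant exons, while for Pcdhga1 (3247 bp) and Pcdhgc3 (3380 bp) it is a single variable exon. Pcdhga6 had 0 CAST reads in replicates 2 and 4, where Pcdhgc3 had 153 and 105. In these columns no read of the constant exons was therefore credited to every member. Reads without a SNP enter no value, and whether the constant exons hold usable SNPs was not examined. Whether reads of the constant exons were credited to any member was not tested. Levels were therefore also computed with the exonic bases that no other gene on the strand shares as the length, called the unshared RPKM here. On this scale the order of the 3 highest means held, with Pcdhgc3 at 1.82 ± 0.136, Pcdhga12 at 1.30 ± 0.117 and Pcdhga1 at 0.997 ± 0.120 unshared RPKM (SD, n = 4). The other 20 gamma genes moved up by between 1.01-fold (Pcdhgb5) and 3.01-fold (Pcdhga4). Pcdhga11 and Pcdhgb8 both came to 0.875, near Pcdhga1. Pcdhga11 was above Pcdhga1 in replicate 1 (1.02 against 0.939), and Pcdhgb8 was above it in replicate 4 (0.870 against 0.855). The step from Pcdhga1 to the next genes thus depended on the length used. Pcdhga4, of which 1570 bp are unshared, went from 0.209 ± 0.0597 to 0.629 ± 0.180 (SD, n = 4). Part of this sequence is also antisense to other genes: all 2613 unshared bp of Pcdhga10 lie opposite Gm26672, and 1559 bp of Pcdhgc3 opposite BC037039. The kit keeps the strand, but whether the counting used it is not given in the sources used here, and neither antisense gene was analysed here.

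**Figure D2:**
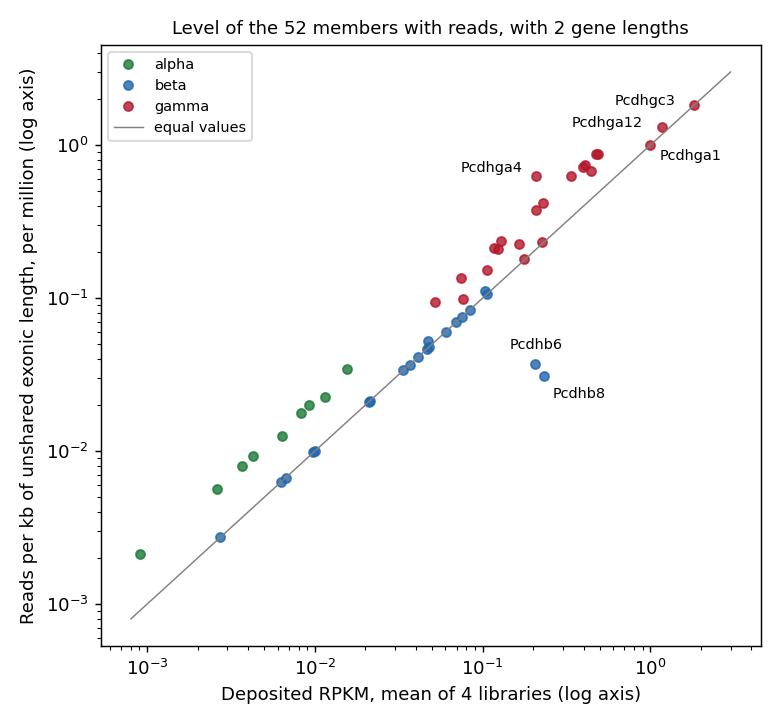
Unshared RPKM (reads per kilobase of unshared exonic length, scaled to the total) against the deposited RPKM, both as means of 4 libraries on log axes, for the 52 members with reads. Alpha and most gamma genes lie above the line of equal values, most beta genes lie on it, and Pcdhb6 and Pcdhb8 lie far below it.

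The beta cluster (chr18:37264938-37524479) was measured close to the limit of detection. Of its 22 genes, 21 had reads, 15 in every library and 9 in all 8 columns, but only Pcdhb22 had at least 100 reads. By deposited RPKM the highest beta genes were Pcdhb8 (0.232 ± 0.167) and Pcdhb6 (0.205 ± 0.169, SD, n = 4), but these rest on 22 and 27 reads and on short transcripts of 462 and 681 bp, in genes with 3484 and 3754 exonic bp. Per unshared length Pcdhb8 fell from rank 10 to rank 37 of the members and Pcdhb6 from rank 15 to rank 33, at 0.0308 and 0.0372 unshared RPKM. The best measured were Pcdhb18 with 0.116, 0.0784, 0.0992 and 0.129 RPKM in replicates 1 to 4 (mean 0.106 ± 0.0218, SD, n = 4, 99 reads) and Pcdhb22 with 0.0801, 0.143, 0.132 and 0.0569 RPKM (mean 0.103 ± 0.0414, 133 reads). Each was the higher of the pair in 2 of 4 libraries. The other 17 beta genes with reads were between 0.00273 RPKM (Pcdhb4, 2 reads) and 0.0838 RPKM (Pcdhb16, 86 reads). The levels of the 22 beta genes correlated less between libraries than those of the gamma genes, with a rho of 0.566 to 0.851. Beta genes are close paralogs, and how reads that match several of them were treated is not given in the sources used here, so that the division of the reads among them is uncertain.

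The alpha cluster (chr18:36930184-37187661) was nearly silent at this depth. Its 13 genes had 64 reads in 4 libraries, 32 on each allele, and in each library between 3 and 8 of the genes had any read. Only Pcdhac2, the C-type gene nearest to the constant exons, had reads in every library, with 0.00885, 0.0135, 0.0140 and 0.00976 RPKM (mean 0.0115 ± 0.00259, SD, n = 4, 13 reads). Pcdha5 had the highest mean, 0.0155 ± 0.0143 RPKM (SD, n = 4, 13 reads), but no read in replicate 1. The other C-type gene, Pcdhac1, was at 0, which allows up to 0.00293 RPKM (3 reads over all 8 columns). Pcdha10 was not analysed here.

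Summed over the members, the levels of the 3 clusters differed more than those of the libraries. The gamma sum was 8.07, 8.52, 9.02 and 8.03 RPKM in replicates 1 to 4 (mean 8.41 ± 0.462, SD, n = 4). The beta sum was 1.48, 1.15, 1.37 and 1.07 RPKM (mean 1.27 ± 0.191), and the alpha sum was 0.0735, 0.0664, 0.0494 and 0.0604 RPKM (mean 0.0624 ± 0.0102, SD, n = 4). The sums did not overlap between clusters in any library. Gamma was above beta by 2.74 ± 0.21 on the log2 scale (6.69-fold) and above alpha by 7.09 ± 0.31 (136-fold), and beta was above alpha by 4.35 ± 0.32 (20.3-fold, SD, n = 4). Each difference had the same sign in 4 of 4 libraries, and its p by the two-sided exact sign-flip test was the smallest that 4 libraries allow, 2 of 16 sign patterns, which cannot pass 0.05. Per unshared length the gamma minus beta difference was 3.70 ± 0.023, the gamma minus alpha difference was 6.50 ± 0.29 and the beta minus alpha difference was 2.80 ± 0.28 on the log2 scale (SD, n = 4).

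**Figure D3:**
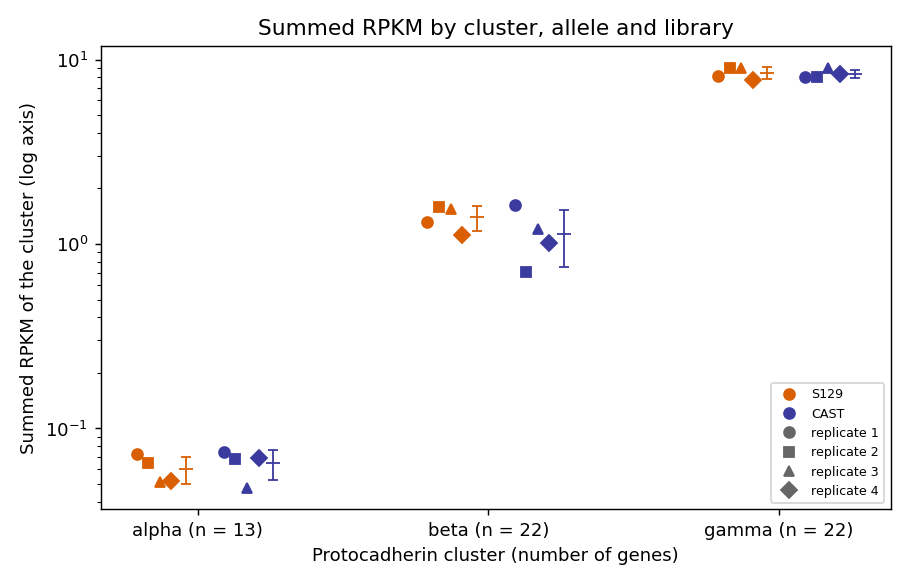
Summed RPKM of each cluster on the S129 and CAST alleles (log axis), with 1 symbol per library and the mean ± SD of 4 libraries beside them. Gamma lies at about 8 RPKM, beta at about 1 and alpha under 0.1, and on each cluster the ranges of the alleles overlap.

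Between the libraries, members varied about as much as other genes of their depth. The index of dispersion of the reads (1 for counting error alone) had a median of 1.88 over the 19 members with at least 100 reads, against 2.22 over 5866 genes with 100 to 2000 reads. Pcdhga7 was steadiest, with an index of 0.194 and 0.423 to 0.468 RPKM. Pcdhga8 varied most, with an index of 9.05 and values of 0.278, 0.482, 0.374 and 0.202 RPKM in replicates 1 to 4.

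To ask whether both copies were equally expressed, the alleles were compared within each library by limma on log2(RPKM + 0.1), for genes with a sum of both alleles of at least 1 RPKM, with the Benjamini-Hochberg adjustment over 13341 genes. Of all genes tested, 31.4% were called higher on S129 and 31.3% higher on CAST at an adjusted p under 0.05. All genes here include those of the X chromosome, which in these male cells had reads almost only on S129 (Smc1a, 56.5 against 0.0644 RPKM on CAST). The members are all autosomal, and the share over autosomal genes alone is not given here. Only 3 of the 57 members passed this filter. Of these, 1 was called, Pcdhga1, on S129. With the filter lowered to 0.1 RPKM, 30 members could be tested, and 3 were called higher on S129 (Pcdhga1, Pcdhga8 and Pcdhb20) and 1 higher on CAST (Pcdhga7), that is 10.0% and 3.33% of those tested, beside 26.4% and 25.2% of the 17383 genes tested. Rescaling each allele to the sum of its autosomal RPKM moved the median difference of all genes from -0.0034 to 0.099 on the log2 scale and the S129 part of all calls from 50.0% to 62.6%, and left the calls of the members at 1 on S129 and 0 on CAST. With the recovered reads in place of RPKM, a test added after the data were seen, 19 members with at least 100 reads could be tested (log2 of reads + 0.5, per total of the allele, 14377 genes). It called 2 members higher on S129 (Pcdhga1 and Pcdhga8) and 1 higher on CAST (Pcdhga7), 10.5% and 5.26% of those tested, beside 30.4% and 29.9% of all genes tested. The median standard error of the difference was 0.15 for the members and 0.066 for all genes in this fit, and the median size of the difference 0.33 for both, so the share called is not a share of genes that differ.

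Pcdhga1 had 1.06, 1.33, 1.30 and 0.956 RPKM on S129 and 0.818, 0.863, 0.886 and 0.755 RPKM on CAST in replicates 1 to 4. S129 was higher in 4 of 4 libraries and the ranges of the alleles did not overlap. The difference was 0.43 ± 0.061 on the log2(RPKM + 0.1) scale (SE, limma, adjusted p = 0.00414). Of its 620 reads, 59.4% were S129 reads (Clopper-Pearson interval, 95%, 55.4 to 63.2%). The median S129 share over 296 other genes of chromosome 18 with at least 400 reads was 51.3%. The antisense gene Gm37118 lies opposite 406 bp of Pcdhga1.

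Pcdhga7 and Pcdhga8 lie close together (chr18:37714764-37841873 and chr18:37725706-37841873, with the variable exon of Pcdhgb4 between them) and were unequal in opposite directions. Pcdhga8 had 0.426, 0.749, 0.542 and 0.328 RPKM on S129 and 0.129, 0.215, 0.206 and 0.0759 RPKM on CAST. S129 was higher in 4 of 4 libraries without overlap. By the recovered reads the difference was 1.72 ± 0.12 on the log2 scale (3.29-fold, SE, limma, adjusted p = 0.00054), and 77.1% of its 310 reads were S129 reads (72.0 to 81.7%). Pcdhga7 had 0.367, 0.288, 0.310 and 0.231 RPKM on S129 and 0.478, 0.593, 0.626 and 0.632 RPKM on CAST. CAST was higher in 4 of 4 libraries, again without overlap. The difference was -0.96 ± 0.18 (1.95-fold towards CAST, SE, limma, adjusted p = 0.0123), and 35.7% of its 392 reads were S129 reads (31.0 to 40.7%). The call of Pcdhga7 was lost without replicate 2 (adjusted p = 0.0531) and without replicate 3 (adjusted p = 0.0522), with differences of -0.94 and -0.95. The call of Pcdhga8 was kept without each library in turn (adjusted p of 0.00214 to 0.00591). Pcdhgb4, the gene between them, had 66 reads and an S129 share of 40.9% (29.0 to 53.7%). The antisense gene Gm37165 lies opposite 536 bp of Pcdhga7 and 416 bp of Pcdhga8, and its part in these values was not tested.

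**Figure D4:**
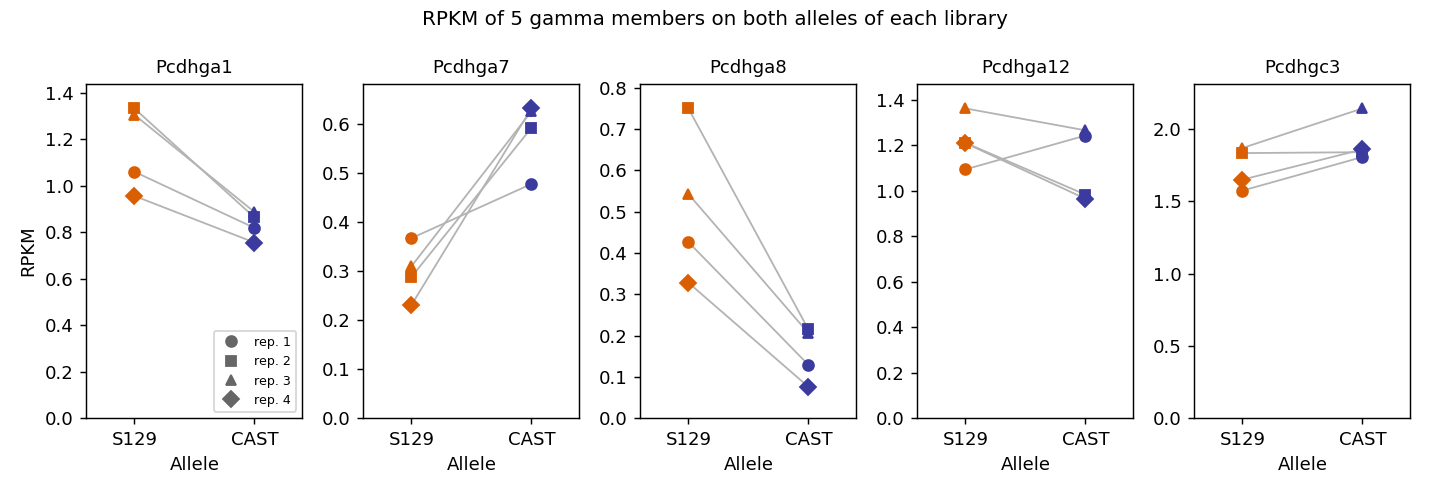
RPKM on the S129 and CAST alleles in the same library (joined by a line, 1 symbol per replicate) for 5 gamma genes; each panel has its own axis from 0. Pcdhga1 and Pcdhga8 are higher on S129 and Pcdhga7 is higher on CAST in all 4 libraries, while Pcdhga12 is mixed.

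Pcdhgc3 and Pcdhga12, the most highly expressed members, were closer to balance than Pcdhga1, Pcdhga7 and Pcdhga8. Pcdhgc3 had 1.57, 1.83, 1.87 and 1.65 RPKM on S129 and 1.81, 1.84, 2.14 and 1.86 RPKM on CAST. CAST was higher in 4 of 4 libraries but the ranges overlapped. The difference was -0.14 ± 0.046 (SE, limma, adjusted p = 0.0581), and it passed the threshold only without replicate 2 (-0.18, adjusted p = 0.0348). Pcdhga12 had 1.09, 1.21, 1.36 and 1.21 RPKM on S129 and 1.24, 0.984, 1.27 and 0.966 RPKM on CAST, with S129 higher in 3 of 4 libraries and a difference of 0.13 ± 0.094 (SE, limma, adjusted p = 0.299). Among the other 14 members with at least 100 reads, none was called, and their S129 shares ranged from 43.2% (Pcdhgb7) to 60.2% (Pcdhb22). Pcdhgb7 was called higher on CAST when replicate 4 was left out (-0.58, limma, adjusted p = 0.00941) and had -0.38 ± 0.18 (SE, adjusted p = 0.130) with all libraries. Pcdhb22 had S129 shares of 53.3, 66.7, 50.0 and 84.6% in replicates 1 to 4.

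**Figure D5:**
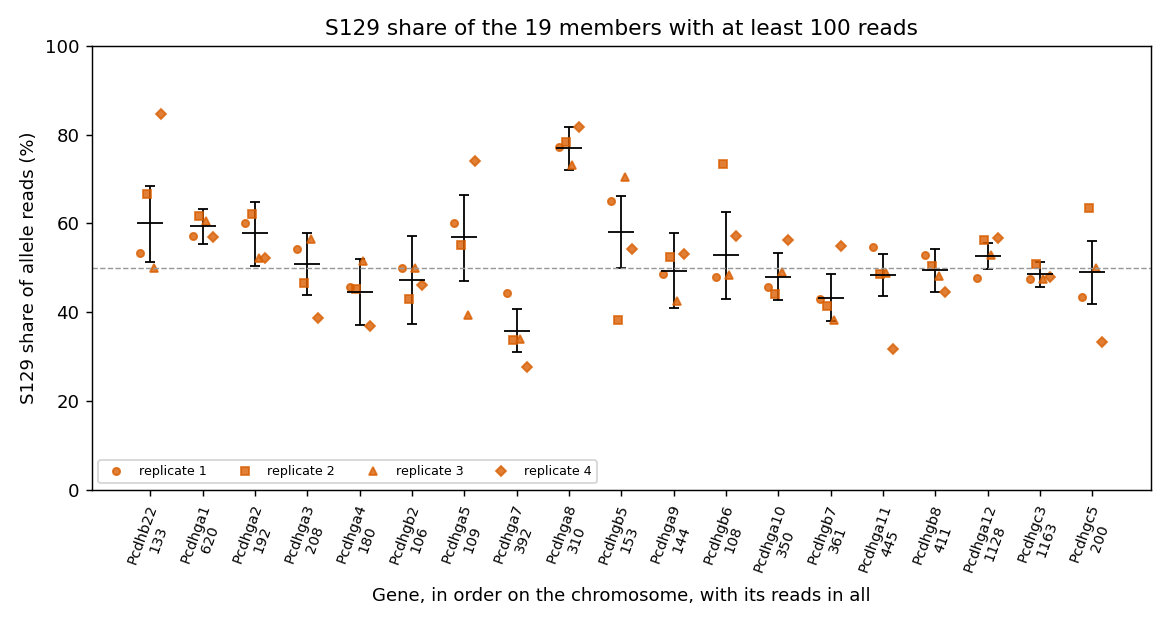
S129 share of the allele reads (%) of the 19 members with at least 100 reads, in their order on the chromosome; bars are pooled shares with Clopper-Pearson intervals (95%), and symbols the 4 libraries. Pcdhga8 lies above 70% and Pcdhga7 below 45% in every library, and the pooled shares of the other genes lie nearer to the dashed line at 50%.

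The other 33 members with reads had fewer than 100 each, and for 9 of them the counting interval of the pooled S129 share lay wholly to one side of 50%. These intervals leave out the spread between libraries. The same count over all genes with so few reads was not made, so 9 of 33 cannot be called many or few. Pcdhb16 had the most reads of the 9 (86), with a pooled share of 74.4% (63.9 to 83.2%), but its shares were 86.8, 64.7, 88.9 and 30.8% in replicates 1 to 4, so the libraries did not lean to one allele. Likewise Pcdhb21 had a pooled share of 72.7% (57.2 to 85.0%, 44 reads) and 20.0% in replicate 4. Pcdhb7 leaned to CAST in every library, with S129 shares of 30.8, 0, 22.2 and 0% and a pooled share of 21.4% (8.30 to 41.0%, 28 reads). Pcdhb1 had reads on S129 alone, with 0.0134, 0, 0.0787 and 0.178 RPKM there and 0 in all CAST columns. Its 14 reads give an interval of the S129 share of 76.8 to 100%. Pcdhb20, called on S129 with the filter at 0.1 RPKM, had 0.0879, 0.0547, 0.0801 and 0.113 RPKM on S129 and 0.0303, 0.0114, 0.0357 and 0.0672 RPKM on CAST. S129 was higher in 4 of 4 libraries, but the ranges overlapped. Its difference was 0.44 ± 0.047 on the log2(RPKM + 0.1) scale (SE, limma, adjusted p = 0.00275), and it rests on 39 reads, of which 71.8% were S129 reads (55.1 to 85.0%). Reads on a single allele were also seen for Pcdhb9 (3 reads, S129), Pcdha2 (3 reads, CAST) and Pcdha6 (1 read, S129). Pcdhga6 had 9, 8, 8 and 9 S129 reads and 9, 0, 4 and 0 CAST reads in replicates 1 to 4, so that 72.3% of its 47 reads were S129 reads (57.4 to 84.4%).

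At the level of the clusters, the ranges of the alleles overlapped in every cluster. The sign-flip test of 4 libraries cannot pass 0.05. The log2 ratio of the S129 to the CAST sum was 0.018 ± 0.11 for gamma (SD, n = 4, two-sided exact sign-flip p = 0.625), with S129 higher in 3 of 4 libraries. For beta it was 0.34 ± 0.62 (p = 0.375, same exact test), with S129 higher in 3 of 4 libraries, and replicate 2 alone gave 1.18. Without replicate 2 the beta ratio was 0.066. Pcdhb6 and Pcdhb8, with 27 and 22 reads on short lengths, made up 34.6% of the beta sum. By reads, 57.8% of the 778 beta reads were S129 reads (54.3 to 61.3%), with 55.5, 65.3, 58.5 and 48.4% in replicates 1 to 4, and the log2 ratio of the reads per total was 0.35 ± 0.41 (SD, n = 4). For alpha the log2 ratio of the sums was -0.10 ± 0.22 (p = 0.5, same exact test). The beta ratio differed from the gamma ratio by less than the spread between libraries (-0.33 ± 0.56 for gamma minus beta, exact sign-flip p = 0.375).

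Most of the genes listed around the clusters were well expressed. Of 22 neighbouring genes, 18 (81.8%) had at least 1 RPKM, against 57.9% of the other genes of chromosome 18, and their median was 14.5 RPKM. The neighbours are a chosen list and not every gene of the region. Pcdh1 (0.769 RPKM) and Pcdh12 (0.492 RPKM) lie among them but are counted with the protocadherins outside the clusters. Between the beta and gamma clusters lie Taf7, a subunit of the general transcription factor TFIID, at 74.3 ± 8.70 RPKM, and Slc25a2, a mitochondrial ornithine carrier, at 0.576 ± 0.0621 RPKM (SD, n = 4). The summed level of the 22 gamma genes that start just beyond Taf7 was 8.41 RPKM. Beyond the gamma cluster, Diaph1, an actin nucleator, was at 7.96 ± 0.615 RPKM. Of 21 neighbours tested, beside 31.4% (S129) and 31.3% (CAST) of all genes, 7 (33.3%) were called on S129 (Taf7, 0.16 ± 0.038, adjusted p = 0.0210, limma) and 4 on CAST (Slc25a2, -0.72 ± 0.12, adjusted p = 0.0063; Diaph1, -0.35 ± 0.055, adjusted p = 0.00573, limma).

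The protocadherins outside the clusters were also low. Of 12, 2 had at least 1 RPKM, namely Pcdh18 (4.72 ± 0.572) and Pcdh7 (1.17 ± 0.0982 RPKM, SD, n = 4), and the median was 0.119 RPKM. Pcdh1, on chromosome 18 beyond the gamma cluster, was at 0.769 ± 0.0448 RPKM (SD, n = 4). All 3 tested were called, beside 31.4% (S129) and 31.3% (CAST) of all genes, Pcdh1 and Pcdh7 on S129 and Pcdh18 on CAST (-1.22 ± 0.063, SE, limma, adjusted p = 0.000179).

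Genes listed for the regulation of the clusters or as partners of their proteins mostly had at least 1 RPKM, except Stag2, Tet3, Wiz, Adnp and Celsr3. Adnp had 1 read in all and Wiz had 48. Whether such low values reflect the cells or the counting of reads was not tested. Calls of the listed genes between alleles are to be read beside the 31.4% (S129) and 31.3% (CAST) of all genes tested, which include genes of the X chromosome. Among 11 insulator and cohesin genes, 10 had at least 1 RPKM, with Ctcf at 10.8 ± 0.995 and Rad21, a cohesin subunit, at 54.6 ± 5.90 RPKM (SD, n = 4). Of the 9 autosomal ones tested, 1 was called on S129 (11.1%) and 3 on CAST (33.3%). All 8 genes of DNA methylation and demethylation were detected, with a median of 40.4 RPKM. Among them were the de novo methyltransferase Dnmt3b (71.2 ± 7.18) and its cofactor Dnmt3l (2142 ± 85.9 RPKM, SD, n = 4). Their reads were much closer, 56775 for Dnmt3b and 85536 for Dnmt3l. RPKM depends on the gene length used, which was not examined for the genes of these lists. Of the 8, 2 were called on S129 (25.0%) and 5 on CAST (62.5%). Of 15 heterochromatin factors, 13 had at least 1 RPKM, with Smchd1, which represses the clusters in other mouse cells, at 50.4 ± 2.40 and the H3K9 methyltransferase Setdb1 at 19.5 ± 1.45 RPKM (SD, n = 4). Of the 11 autosomal ones tested, 1 was called on S129 (9.09%) and 7 on CAST (63.6%). Of 14 genes for partners of protocadherins, such as the kinases Fyn (44.0 ± 2.96) and Ptk2 (16.0 ± 1.21 RPKM, SD, n = 4), 13 had at least 1 RPKM, and of the 13 tested 1 was called on S129 (7.69%) and 7 on CAST (53.8%). By reads the order of the kinases was the reverse, with 2791 for Fyn and 13503 for Ptk2.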

How the data were processed

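RNAseq of untreated F123-ESCs was examined in 4 libraries. The authors removed ribosomal RNA reads, trimmed reads with Trimmomatic (version 0.40), mapped them by STAR onto mm10 with strain SNPs masked, and sorted them by allele with SNPsplit. The counting program, its use of strand and the treatment of reads matching several genes are not given in the sources used here. The authors deposited RPKM per gene, allele and library, with averages and their log10(RPKM+1), which were not used. No column (0) belonged to another sample, and the S129 column numbered -1 was read as replicate 1.

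Members and gene lists were chosen with earlier results of these data known. Genes were matched by identifier to GENCODE M21 (23995 of 24026). Totals, lengths and reads were recovered from the RPKM steps, within 0.02 reads plus 2e-07 of the reads (99.5% of the genes above 0). Levels are means of both alleles. Alleles were compared within libraries by limma (version 3.58.1, R 4.3.3) on log2(RPKM + 0.1), which understates differences of low genes, for genes with at least 1 RPKM on both alleles together. Columns of 1 number are reads of 1 library, which gives the pairing. Clusters were compared by the two-sided exact sign-flip test. All members could be named, the 10 highest, the highest of each cluster, C-type genes and called members with full values. Pcdhga7, Pcdhga8, Pcdhb1 and Pcdhga6 also stand out by values seen. Recovery and limma were tested on simulated data. Alternatives covered pseudocount, filter, scaling, block, single alleles, the median of libraries or members, and each library left out. Intervals are exact (Poisson or Clopper-Pearson, 95%). SciPy was version 1.17.1.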

Additional observations from a re-analysis of the deposited data

How the results depend on the processing

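Of 176 values recomputed under another setting, 161 stayed on the same side of their test or within the spread of the libraries, and no call between alleles turned to the other allele. The allele ratio of the gamma sum, near 0 (0.018), changed sign with the median over members (-0.023) and without replicate 2 (-0.027), and the S129 part of all calls went from 50.0% to 48.8% with the median of chromosome 18 taken out. The calls between alleles depended on which members were tested. With a filter of 0.1 RPKM there were 3 on S129 and 1 on CAST, with no filter 3 and 2 (Pcdhb7 added on CAST), and with whole reads 2 and 1. With no filter 52 members were tested, and of all 20243 genes tested 4471 were called on S129 and 4169 on CAST. With the filter of 1 RPKM and 1 library left out at a time, 1 member was called on S129. On CAST between 0 and 1 was called (Pcdhgc3, without replicate 2). With whole reads, Pcdhga1 and Pcdhga8 were called on S129 without each library in turn. On CAST the whole reads called Pcdhga7 without replicate 1 or 4, Pcdhgb7 without replicate 4 and Pcdhgc3 without replicate 2. Pcdhga1 was called on S129 in every fit made, and the fit with no replicate block changed no member call. With the unshared length the sums were 0.132 (alpha), 0.909 (beta) and 11.8 RPKM (gamma), and the log2 differences were 3.70 (gamma minus beta), 6.50 (gamma minus alpha) and 2.80 (beta minus alpha). With the median over members, gamma minus beta was 2.48; the same could not be computed for alpha, whose median was 0 in some libraries. The fits with whole reads and the unshared length were chosen after seeing the data. The members beyond the 19 with at least 100 reads were compared on fewer reads, 39 for Pcdhb20 and 28 for Pcdhb7. In 44 quantities of 4 libraries (levels and S129 shares of the 19 members, sums and ratios of the clusters), Dixon's criterion marked no library, where chance would mark about 1 in 20.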
